A study of Homo sapiens with 14 samples.

Results

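Adenosine runs inside transcripts, here maximal stretches of at least 8 consecutive A, were described with the reactivity of 2 chemical probes in K562, an established human erythroleukemia cell line. Runs were sought in the 3032 transcripts that stood in all 4 deposited reactivity profiles, had the same length as the GENCODE release 44 transcript of that identifier, and had the highest mean RPKM (reads scaled by transcript length and library size) of their gene. These transcripts held 383 such runs. Of these, 68 ended within 50 nt of the transcript 3' end and 19 held a nucleotide without a score, which left 296 runs in 229 genes, with 3371 adenosines. The runs had a median length of 9 nt and a longest of 41 nt, and 99 had exactly 8 A. By the position of their midpoint, 155 runs lay in a 3' UTR, 24 in coding sequence, 10 in a 5' UTR and 107 in transcripts without an annotated coding sequence, called noncoding here.

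In icSHAPE, NAI-N3 acylates the 2'-hydroxyl of flexible nucleotides, and in icLASER, light-activated NAz-N3 reacts at C8 of solvent-accessible purines. Cells were labelled alive (in vivo), or their RNA was extracted, refolded and labelled outside the cell (in vitro), with 100 mM NAI-N3 for 5 min or with NAz-N3, added from a stock at 1 M, under UV light for 10 min. The 14 libraries of polyadenylated RNA comprised, for icSHAPE, 3 in vivo, 2 in vitro and 3 with DMSO as the control, and for icLASER, 2 of each condition and 2 No UV controls. The authors pooled them into 4 profiles, 1 for each reagent and condition, and the in vivo and in vitro profiles of a reagent share their control libraries. Each nucleotide has a score from 0, no enrichment over the control, to 1, the highest. With 1 profile per condition there is no replicate error and no test was possible, and the read depth of single nucleotides is not known. Every SD below is the spread over runs, which are not replicates of a condition, and values of a difference are in vivo minus in vitro on the score scale.

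Poly(A) is the preferred ligand of the poly(A)-binding proteins, which coat the tail of messenger RNAs in the cytoplasm and nucleus. Long stretches of A stack into a single-stranded helix, and with stretches of U they can pair. Inside coding sequence, A runs read as consecutive lysine codons, on which ribosomes can pause or slip. Many internal A runs in human 3' UTRs and in pseudogenes are remnants of retrotransposition, such as the ends of Alu elements.

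The sequences below show the runs on which the results turn, each read 5' to 3' from the GENCODE transcript, with the run in capitals. The first 4 had the largest icLASER differences, APOBEC3C is 1 of the longest runs, NAA15 and DDX17 had among the lowest icSHAPE differences, UBE2L3 had a low icLASER difference, and the last 3 come from abundant transcripts and show the score pattern at the run's end.
PTP4A2 run 1: uuuagauAAAAAAAAAAAAAAAAcaaaaaa
PABPN1 run 2: aaagaauuAAAAAAAAAAAAAAgaaaaaca
TMBIM6 run 2: aaagaaagAAAAAAAAAAAAAcaccuacu
ZCRB1 run 1: aagaaaaaaagAAAAAAAAgaaagcuccug
APOBEC3C: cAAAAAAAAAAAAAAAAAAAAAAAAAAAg
NAA15 run 1: uagaagaagagAAAAAAAAugcagaaaaag
DDX17 run 1: agcguuugcguAAAAAAAAgugggauuuga
UBE2L3 run 1: ccauaagguuuAAAAAAAAggaaaaaaaac
H3-3A: auucucAAAAAAAAAAAAAAAAAuuucuc
MT-ND5: uuaacccuaacAAAAAAAAcucauaccccc
BCYRN1: agaaaaaggAAAAAAAAAAAcaaaagaca
Runs are numbered from the 5' end of the transcript. In GRCh38, the printed stretches lie at chr1:31908230-31908259 (PTP4A2, minus strand, 3' UTR), chr14:23325342-23325371 (PABPN1, plus, 3' UTR), chr12:49764720-49764748 (TMBIM6, plus, 3' UTR), chr12:42313890-42313919 (ZCRB1, minus, coding) and chr22:39018818-39018846 (APOBEC3C, plus, 3' UTR). The others lie at chr4:139370280-139370309 (NAA15, plus, coding), chr22:38501195-38501224 (DDX17, minus, coding), chr22:21621978-21622007 (UBE2L3, plus, 3' UTR), chr1:226071506-226071534 (H3-3A, plus, 3' UTR), chrM:12407-12436 (MT-ND5, plus, coding) and chr2:47335435-47335463 (BCYRN1, plus, noncoding).

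Within a run the score was uneven, and the same adenosine stood out in all 4 profiles. The next-to-last A had a mean score of 0.345 ± 0.381 in icSHAPE in vivo, against 0.104 ± 0.132 for the interior of the run, which leaves out the first 2 and the last 2 A. In icSHAPE in vitro the pair of values was 0.302 ± 0.378 and 0.0873 ± 0.120. In icLASER it was 0.396 ± 0.413 and 0.194 ± 0.217 in vivo, and 0.277 ± 0.344 and 0.131 ± 0.135 in vitro. The next-to-last A thus lay above the interior mean in 180 of 296 runs in icSHAPE in vivo and below it in 78. In that profile it alone had the highest score of its run in 96 runs. The counts above and below were 148 and 91 in icSHAPE in vitro, 163 and 89 in icLASER in vivo, and 153 and 110 in icLASER in vitro. The score fell again at the last A, to 0.175 in icSHAPE in vivo and 0.319 in icLASER in vivo. In icSHAPE the pattern was not particular to A. In runs of 8 U the next-to-last U averaged 0.360 in vivo and 0.336 in vitro, against run means of 0.202 and 0.128. At 12 U or more it had 0.452 and 0.248, against 0.229 and 0.118. In icLASER it had 0.252 and 0.158 against 0.222 and 0.105 at 8 U. At 12 U or more it lay below the run mean, with 0.343 and 0.160 against 0.497 and 0.249.

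**Figure D1:**
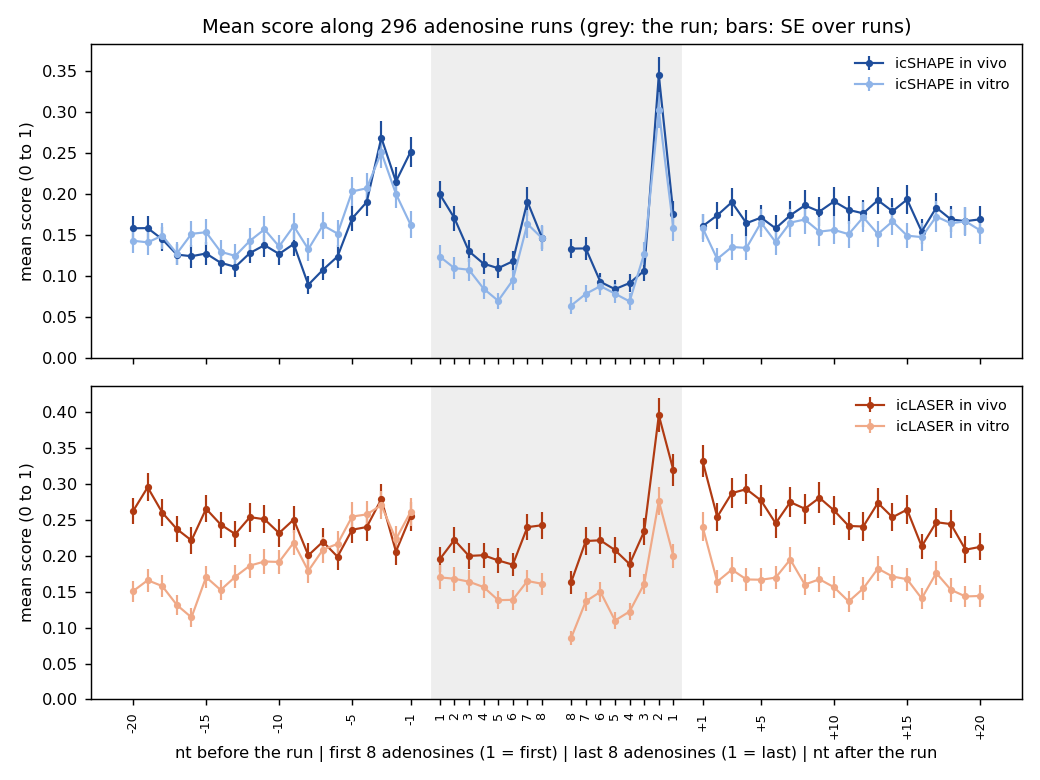
Mean score (y, 0 to 1) of each nucleotide from 20 nt before to 20 nt after the 296 runs, with the first 8 and the last 8 adenosines on grey (in runs shorter than 16 nt these overlap); bars are SE over runs. All 4 profiles peak at the next-to-last adenosine (0.345 and 0.302 in icSHAPE, 0.396 and 0.277 in icLASER, in vivo and in vitro), and icLASER in vivo lies above in vitro in the 20 nt after the run and from 20 to 7 nt before it, but below at 5 of the 6 nt just before it.

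Single transcripts showed this end pattern or lacked it. Of the 12 runs with the highest RPKM, 3 in each location, the next-to-last A had the highest score of the run, alone or tied, in 4 in icSHAPE in vivo and in 6 in each of the other profiles, and in all profiles in MT-ND5, PABPC1, H3-3A and BCYRN1. In RPL9, a ribosomal protein of the large subunit, it was instead at 0.063 in icSHAPE in vivo with the second A at 0.498, and in CEBPZOS every A was at 0.000 in both in vivo profiles. In BCYRN1, a short noncoding RNA of Alu origin with an adenosine-rich stretch, the first 9 A of its 11 A run lay between 0.049 and 0.144 in icSHAPE in vivo, the next-to-last at 1.000 and the last at 0.249. In vitro the next-to-last A was again at 1.000 and the last at 0.723. In the 3' UTR of H3-3A, which encodes a replication-independent histone H3 variant, the next-to-last of 17 A was at 1.000 in each of the 4 profiles, while the icLASER in vitro score of the 15 A before it ran from 0.110 to 0.253. In MT-ND5, a mitochondrially encoded subunit of respiratory complex I, the next-to-last of 8 A had the highest score of the run in every profile, at 0.444 and 0.285 in icSHAPE and 0.871 and 1.000 in icLASER, in vivo and in vitro.

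The score at the run's end differed with the base that followed. Before U (99 runs) the next-to-last A had a mean icSHAPE score of 0.533 ± 0.393 in vivo and 0.423 ± 0.407 in vitro. Before C (60 runs) it was 0.521 ± 0.392 and 0.465 ± 0.419. Before G (137 runs, 46.3% of all) it was only 0.132 ± 0.229 and 0.143 ± 0.259, close to the run's interior. icLASER in vivo had 0.540 before U, 0.518 before C and 0.239 before G. In icLASER the base after the run was itself scored high where it was G, at 0.447 in vivo and 0.377 in vitro, against 0.187 and 0.126 for U. The place of the peak is that of the score as deposited, and moving every score by 1 nt would move it as well.

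The end pattern also differed with location. In 3' UTRs the next-to-last A was above the interior in 116 runs and below in 27 in icSHAPE in vivo, and in coding sequence in 17 and 5 runs. In noncoding transcripts the counts were 42 and 44, and the means 0.221 ± 0.335 at the next-to-last A and 0.109 ± 0.167 inside.

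The mean icSHAPE score of a run was lower in runs of 8 to 10 nt than in runs of 2 to 5 nt, whereas that of its next-to-last A was much the same. A runs of 2 nt (96236 of them in the same transcripts) averaged 0.256 in icSHAPE in vivo, runs of 5 nt 0.175, runs of 8 nt 0.145 and runs of 10 nt 0.118, with 0.165 at 12 nt or more. In vitro the same lengths had 0.216, 0.157, 0.135, 0.121 and 0.115. The next-to-last A meanwhile stayed between 0.297 and 0.434 in vivo in every length class from 2 nt to 12 nt or more. In vitro it stayed between 0.270 and 0.386. In the 22 runs of 20 nt or more, however, it was at 0.206 in vivo and 0.150 in vitro. There it lay above the interior mean in 8 runs in vivo and 6 in vitro, and below it in 14 and 16. A run broken once by another base, counted in 855 windows of 8 A around 1 interruption, kept a higher icSHAPE mean of 0.195 in vivo and 0.171 in vitro. This differed with the interrupting base. The 426 windows broken by G had only 0.168 and 0.140, the 232 broken by C 0.220 and 0.208, and the 197 broken by U 0.225 and 0.196.

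icLASER behaved differently with length. In vitro its mean score hardly moved, lying between 0.135 and 0.172 in every length class from 2 nt to 12 nt or more. In vivo it was 0.162 at 2 nt, 0.170 at 8 nt, 0.180 at 10 nt, 0.242 at 11 nt and 0.321 at 12 nt or more. Compared with A in runs of 1 to 3 in the same transcript, the 296 runs were lower in icSHAPE, by a mean of -0.0415 ± 0.140 in vivo with 211 runs below, and higher in icLASER in vivo, by 0.0829 ± 0.204 with 162 above.

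The study compared living cells with extracted RNA to see where the cell changes access to a nucleotide. For icSHAPE the A runs did not stand out in this comparison. The mean score was 0.148 ± 0.137 in vivo and 0.119 ± 0.125 in vitro, a difference of 0.0293 ± 0.128. Of the 296 runs, 62 were higher in vivo by at least 0.1, which is 20.9%, while 22.8% of all 323421 non-overlapping 8 nt windows of these transcripts were. Lower by at least 0.1 were 27 runs, 9.12%, against 12.2% of windows. The mean difference of all windows was 0.0242. Divided by each profile's own mean, the icSHAPE difference over the runs was 0.00738.

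For icLASER the A runs were higher in vivo more often than the windows. The mean score was 0.225 ± 0.205 in vivo and 0.154 ± 0.137 in vitro, a difference of 0.0707 ± 0.193 with a median of 0.0333. Higher by at least 0.1 were 107 runs, 36.1%, against 15.8% of all windows, and lower by at least 0.1 were 39 runs, 13.2%, against 15.7%. Any positive difference was seen in 181 runs (61.1%; windows 50.6%) and any negative one in 95 (windows 44%). The mean window difference was 0.00137. Both reagents were higher by at least 0.1 in 24 runs and both lower in 9, while in 111 neither passed 0.1. In 7 runs icSHAPE was higher and icLASER lower by at least 0.1, and in 10 the reverse. The share of windows in these classes was not counted, so agreement of the reagents cannot be read from them.

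The icLASER difference grew with the length of the run. It was 0.0128 ± 0.172 at 8 nt (99 runs), 0.0174 ± 0.131 at 9 nt (53), 0.0696 ± 0.163 at 10 to 11 nt (51) and 0.163 ± 0.224 at 12 nt or more (93). A runs of 1 to 7 nt lay between -0.00784 and 0.0113. At 12 nt or more, 52 of 93 runs were higher by at least 0.1 and 8 lower. Over all 296 runs, length and the icLASER difference had a Pearson r of 0.273 and a Spearman rho of 0.345, and length and the icSHAPE difference 0.0873 and 0.140. All runs share 1 pair of profiles and up to 5 share a transcript.

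By location, the mean difference was highest in 3' UTRs. There icLASER averaged 0.250 in vivo and 0.149 in vitro, a difference of 0.101 ± 0.211 with 65 of 155 runs higher by at least 0.1, which is 41.9% where 21.4% of 3' UTR windows were. The 52 runs of 12 nt or more in 3' UTRs had 0.378 in vivo and 0.159 in vitro, a difference of 0.220 ± 0.252, and 43 of them were higher and 8 lower by any amount, where 58.4% of 3' UTR windows were higher and 39.7% lower. The 39 of exactly 8 nt showed none, with a mean of -0.0116 ± 0.139 and 21 higher and 18 lower.

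In noncoding transcripts the icLASER difference was 0.0259 ± 0.149, with 30 of 107 runs higher by at least 0.1 (28%, windows 14.1%), and 0.0949 ± 0.160 in the 37 of 12 nt or more. The noncoding runs among the 10 longest of all, 25 nt or more, lay lower, between -0.0758 and 0.0749. The 38 runs in pseudogenes had -0.00805 ± 0.123 and the 17 in transcripts annotated as retained intron 0.101 ± 0.222. In coding sequence it was 0.0681 ± 0.222 with 8 of 24 higher by at least 0.1 (33.3%, windows 13.4%), and the 10 runs in 5' UTRs had 0.0819 ± 0.183. The 20 coding runs of 8 nt had 0.0958 ± 0.230, against -0.0116 in 3' UTRs and -0.00894 in noncoding transcripts at that length, while the 2 coding runs of 9 nt had -0.124 and the 2 of 10 nt or more -0.0175, so the growth with length was not seen in coding sequence. Reads of a pseudogene and of its parent gene cannot always be told apart either. Without pseudogenes the icLASER difference over the remaining 258 runs was 0.0823 ± 0.199.

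**Figure D2:**
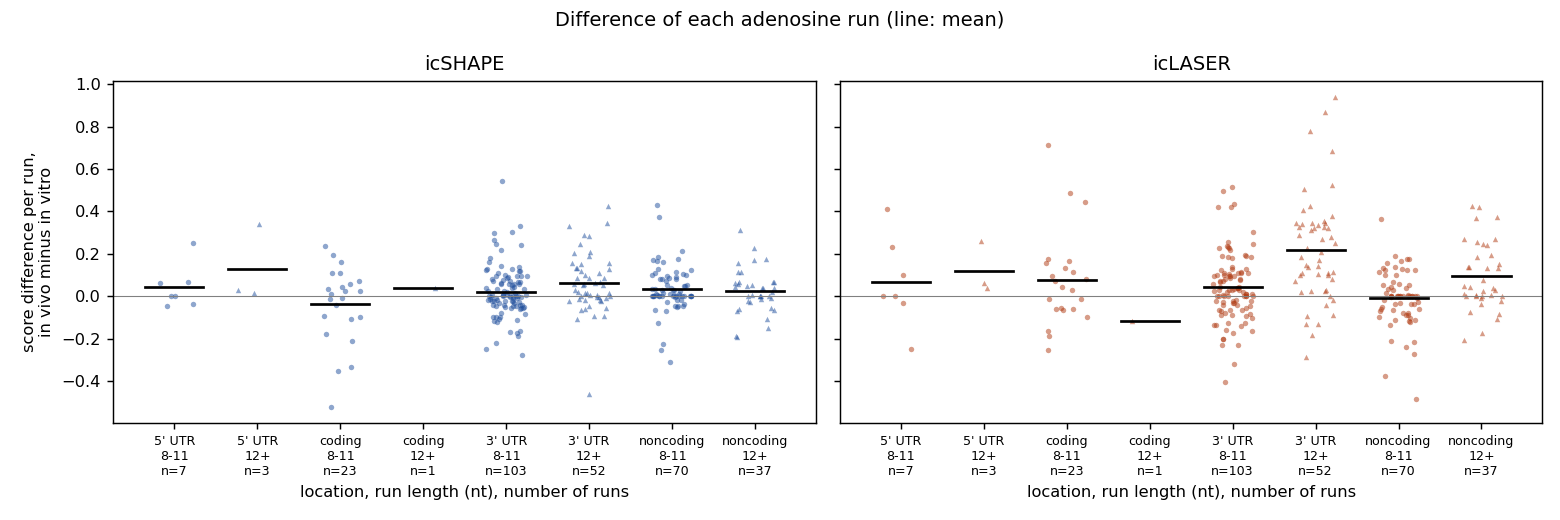
Score difference of each run, in vivo minus in vitro (y), for icSHAPE and icLASER, by location and by run length 8 to 11 nt (circles) or 12 nt or more (triangles); lines are means and n is the number of runs. In icLASER the 3' UTR runs of 12 nt or more have the highest mean, 0.220, and 3 of them exceed 0.7, while the icSHAPE means in 3' UTRs and noncoding transcripts are at or below 0.0637.

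The rise in icLASER in vivo was not limited to the run. Over the 289 runs with scored flanks, the mean difference was 0.0726 in the run, 0.0493 in the 20 nt upstream and 0.0922 in the 20 nt downstream, so that the run exceeded its flanks by only 0.00191 ± 0.147. Around the 52 runs of 12 nt or more in 3' UTRs, the difference was 0.0877 at 1 to 10 nt upstream, rose to 0.261 at 21 to 30 nt, and then declined to 0.125 at 61 to 70 nt and 0.0167 at 191 to 200 nt. Downstream it was 0.259 at 1 to 10 nt, 0.103 at 21 to 30 nt and 0.0111 at 191 to 200 nt.

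The stretch 21 to 50 nt upstream was the most uniform. There icLASER averaged 0.368 in vivo and 0.128 in vitro, and 51 of the 52 runs of 12 nt or more were higher in vivo, where 58.9% of all 30 nt windows of 3' UTRs were. Among the 30 of these runs that end over 500 nt before the 3' end, 29 were higher, with a mean difference of 0.232 ± 0.166. Upstream of the 103 runs of 8 to 11 nt in 3' UTRs, 79 were higher in that stretch, with a difference of 0.114 ± 0.155, larger than the 0.0415 of the runs themselves. In noncoding transcripts 68 of 105 were higher (windows 53.7%) and in coding sequence 18 of 24 (windows 46.6%). icSHAPE showed no such rise, with -0.000114 in the same stretch of the 52 runs.

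The icLASER difference also varied with the distance to the transcript's own 3' end. Whether this is related to the rise around A runs was not tested. In all 3' UTR windows of 8 nt, the mean icLASER difference was 0.124 at 51 to 100 nt before the 3' end, 0.0721 at 151 to 200 nt, 0.0294 at 301 to 500 nt and -0.0331 beyond 1000 nt, while the icSHAPE difference ran from 0.0117 to 0.0310. The A runs followed the distance as well. The 19 runs in 3' UTRs within 51 to 200 nt had an icLASER difference of 0.214 ± 0.207, where windows averaged 0.0964, and 18 were higher, where 83% of windows were. The 49 at 201 to 500 nt had 0.0993 ± 0.169 (windows 0.0391), with 35 higher (windows 67.7%). The 87 farther away had 0.0777 ± 0.227 (windows -0.0183), with 54 higher (windows 43.1%).

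Uridine runs chosen by the same rule (325 runs) had larger differences in the run, but in 3' UTRs smaller icLASER differences at 21 to 50 nt upstream. There the U runs of 12 nt or more (63) had 0.0527 ± 0.112, against 0.240 ± 0.163 for A runs of that length. Downstream this did not hold throughout. At 101 to 200 nt downstream, U runs of 12 nt or more had 0.0390 and A runs 0.0479. For runs of 8 to 11 nt the values there were 0.0358 for U and 0.0245 for A. Over all U runs the difference was 0.180 in the run and 0.0663 in the flanks, an excess of 0.114 ± 0.177, where A runs had 0.00191. In icSHAPE the U runs exceeded their flanks by 0.122 ± 0.152 and the A runs by 0.0232 ± 0.118. The icLASER score of the U runs themselves was 0.329 in vivo and 0.149 in vitro, although the probe is described as reacting at purines. What an icLASER score at a U or C reports, in these runs or in the flanks, was not tested. The difference between A and U runs was not tested either.

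Among single runs, the largest icLASER difference was in the 3' UTR of PTP4A2, a protein tyrosine phosphatase. In its first run of 16 A, the last 13 A were at 1.000 in vivo, and in vitro no A was above 0.139. The run averaged 0.979 in vivo and 0.0365 in vitro, a difference of 0.943, and icSHAPE also rose, from 0.242 to 0.587. The second run of the same 3' UTR, 12 A long, went the other way, with 0.219 in vivo and 0.505 in vitro, the lowest difference of the 52 long 3' UTR runs, -0.286. PABPN1, the nuclear poly(A)-binding protein that controls tail length, carried 4 runs in its 3' UTR. Their icLASER differences were 0.186, 0.871, -0.0425 and 0.191. The second, of 14 A, averaged 0.968 in vivo and 0.0965 in vitro, and the fourth, of 8 A, had the largest icSHAPE difference of all runs, 0.543, from 0.0528 in vitro to 0.596 in vivo. TMBIM6, a membrane protein of the endoplasmic reticulum, had 0.971 in vivo and 0.190 in vitro in its second run, and flanks at 0.724 and 0.410.

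Other 3' UTR runs fell. UBE2L3, a ubiquitin-conjugating enzyme, had an icLASER mean of 0.133 in vivo and 0.536 in vitro in its first run, a difference of -0.403, and its flanks moved the same way, from 0.430 in vitro to 0.179 in vivo. KPNB1, the importin beta subunit of nuclear transport, had -0.318, from 0.431 to 0.112. In AHCYL1 the second run of 14 A was lower in icSHAPE in vivo, 0.151 against 0.614, and higher in icLASER, 0.651 against 0.313. In the 3' UTR runs of the 3 highest RPKM values the differences lay nearer to 0. H3-3A had 0.189 and 0.206 in icLASER, CEBPZOS 0 and 0.0255, and PABPC1, the main cytoplasmic poly(A)-binding protein, 0.227 and 0.314, in vivo and in vitro. These 3 transcripts had a mean RPKM of 163 to 245. The 3' UTR runs at an RPKM of at least 20, a much lower bound, averaged an icLASER difference of 0.0971, against 0.101 for all. Whether the small differences go with high RPKM was not tested.

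A coding run of 8 A holds 2 AAA lysine codons in any frame. Of the 18 with a known reading frame, 10 began at the first base of a codon. The mean icSHAPE difference of the 24 coding runs was -0.0354 ± 0.181, below the 0.0330 of coding windows, but the median was 0.0154, and 5 runs were higher by at least 0.1 (20.8%, windows 27.1%) and 6 lower (25%, windows 12.4%). Of the 4 lowest icSHAPE differences among all runs, 3 were coding. NAA15, the auxiliary subunit of the NatA acetyltransferase, had the lowest value, -0.524, with its first 6 A at 0.000 in vivo and between 0.286 and 1.000 in vitro. DDX17, an RNA helicase, had -0.354, and ABCF1, a factor in translation initiation, -0.337. The same NAA15 run was higher in icLASER, with 0.898 in vivo and 0.410 in vitro.

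Scores of single runs could jump between neighbouring bases. The coding run of DDX17 had icLASER scores in vivo of either 0.000 or 1.000 at each of its 8 A, 4 of each, and its 3' UTR run, 14 A, was at 0.000 at every A in icSHAPE in vitro, which gave it an icSHAPE difference of 0.425. ZCRB1, an RNA-binding protein of the minor spliceosome, had 2 coding runs of 8 A. The first had an icLASER score of 0.768 in vivo and 0.0533 in vitro, and the second 0.0555 and 0.0675. By codon position, icLASER in vivo was 0.266, 0.272 and 0.362 at codon bases 1, 2 and 3, and 0.209, 0.237 and 0.189 in vitro, with SDs from 0.268 to 0.409 over 46 to 53 adenosines. MT-ND5, RPL9 and TOMM7, the coding runs in the most abundant transcripts, had icLASER differences of -0.0633, -0.163 and -0.118.

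Further runs at the extremes lay in noncoding transcripts and 5' UTRs. The processed pseudogene RPL22P1 had an icSHAPE score of 0.775 in vivo and 0.346 in vitro and an icLASER score of 0.0261 and 0.0244. The letters after its run are those after the run of RPL22, its parent gene, so the reads of the pair may be mixed. The RPL22 run had 0.244 and 0.176 in icSHAPE. It lay in the 5' UTR of the transcript kept for RPL22, and its place in other transcripts of the gene was not examined. RPL23AP43, another ribosomal protein pseudogene, had an icSHAPE difference of 0.376. The lowest icLASER difference of all runs, -0.486, was in the pseudogene ENSG00000235036, from 0.611 in vitro to 0.125 in vivo, and a transcript of UQCRC2 annotated as retained intron, a core subunit of respiratory complex III, had -0.379. In 5' UTRs, NDUFB1, an accessory subunit of complex I, was at 0 in icSHAPE in vitro and 0.342 in vivo, and LAPTM4B, a lysosomal membrane protein, had 0.0625 and 0.0759. BCYRN1 differed little between conditions, with 0.473 in vivo and 0.477 in vitro in icLASER.

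The longest runs had another shape. In the 22 runs of 20 nt or more, the first 4 A averaged 0.713 ± 0.340 in icLASER in vivo and 0.662 ± 0.416 in vitro, and the last 4 A 0.364 ± 0.384 and 0.0779 ± 0.113. In icSHAPE the first 4 A had 0.490 in vivo and 0.318 in vitro, and the last 4 A 0.114 and 0.0800. In runs of 12 to 19 nt (71) the order was turned, with 0.205 at the first 4 A and 0.457 at the last 4 A in icLASER in vivo, and the last above the first in 58 of them.

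In icLASER in vivo the decline came from noncoding transcripts. In their 12 runs of 20 nt or more the first 4 A averaged 0.874 in icLASER in vivo and 0.862 in vitro, and the last 4 A 0.0557 and 0.0285, with the first above the last in 11 of 12 in both profiles. In the 10 runs of that length in 3' UTRs the icLASER score rose in vivo, from 0.521 at the first 4 A to 0.733 at the last 4 A with the first below the last in 7, and fell in vitro, from 0.421 to 0.137 with the first above the last in 6. STAG2, a cohesin subunit, had the longest run, 41 A in a transcript without a defined coding sequence. Its first 13 A were at 1.000 in both icLASER profiles, and from A 26 on none exceeded 0.007. In icSHAPE in vitro none of its A exceeded 0.001.

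Some transcripts with such runs were listed at a high RPKM. The STAG2 transcript had a mean RPKM of 792, against 314 for the other matched transcript of the gene, and the pseudogene transcript of ENSG00000258500, with 29 A, had 2585. The 21 transcripts with a run of 20 nt or more had a median RPKM of 20.9, those with 12 to 19 A 16.5, and the 2803 without a run of 8 A 24.5. The part of abundance, or of the alignment of reads made of A alone, in the shape of these runs was not tested. The remaining runs of 26 nt or more in this class, in ENSG00000236255, NPM1P40, CSF2RA, RN7SL602P and FIS1, averaged between 0.119 and 0.251 in icLASER in vivo and between 0.123 and 0.262 in vitro. In 3' UTRs, PSMB2, a proteasome subunit, and APOBEC3C, a cytidine deaminase, each with 27 A, had 0.517 and 0.593 in vivo against 0.288 and 0.188 in vitro, so that here the in vivo score was the higher.

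Runs in the same gene did not always share a sign. Of the 50 genes with at least 2 runs, all runs of the gene had the same sign of the icLASER difference in 25, and of the icSHAPE difference in 22. A difference of exactly 0 counted as a sign of its own. Over all 296 runs, 61.1% were higher and 32.1% lower in vivo in icLASER, and 56.4% and 35.5% in icSHAPE. Whether runs of a gene agree more or less than runs of different genes was not tested. WSB1, a substrate receptor of a ubiquitin ligase that is named here after its values were seen, held the most, 5, in a noncoding transcript. Its icLASER differences were 0.195, -0.135, 0.269, 0.134 and 0.425, the single negative one at its only run of 8 A. KHDRBS1, an RNA-binding signalling protein also named after its values were seen, had 0.363, 0.374 and 0.027 in runs of 8, 12 and 11 A. There the shortest run did not have the lowest difference.

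Features of the surrounding sequence were set beside the differences. The letters at the end of Alu elements (GUCUC just before the run with GAGAC in the 20 nt before that, on the transcript strand) stood before 11 runs, 3.72%, and before 6 of the 323421 windows, 0.00186%. The icLASER difference was 0.0796 ± 0.143 in these 11 and 0.0703 ± 0.195 in the other 285, and at 12 nt or more 0.104 ± 0.158 in 8 and 0.169 ± 0.229 in 85. It was 0.0738 in the 101 runs with a U run of 6 or more within 200 nt and 0.0690 in the 195 without. By the predicted probability that the run is unpaired, the 98 lowest runs had an icLASER difference of 0.0138 ± 0.156, the 100 in the middle 0.0872 ± 0.193 and the 98 highest 0.111 ± 0.215. In icLASER in vitro the same runs scored 0.168, 0.142 and 0.152, and in vivo 0.182, 0.229 and 0.263. The median of this probability was 0.834 in runs of 8 nt and 0.927 in runs of 12 nt or more. Its part was not separated from that of run length. In icSHAPE the difference was 0.0507 with and 0.0182 without a nearby U run.

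Mean RPKM of the transcript, the closest measure of abundance, was only weakly correlated with either difference. Its Pearson r was 0.0148 and its Spearman rho 0.113 with the icSHAPE difference over the 296 runs, and -0.0711 and -0.0248 with the icLASER difference. In the 98 runs of lowest RPKM, the 100 in the middle and the 98 of highest, the icSHAPE difference was 0.0138, 0.0224 and 0.0517, and the icLASER difference 0.0585, 0.0795 and 0.0738. Scores of exactly 0 made up 44.9% of the adenosines in icSHAPE in vivo, 62.0% in vitro, 38.2% in icLASER in vivo and 44.8% in vitro, and in 30, 44, 34 and 29 runs every A was at 0. The cells carried erythroid messages throughout, with HBG1 at RPKM 1225 to 2652 and GATA1 at 73.1 to 99.7 over the 4 profiles, whereas the lymphoid genes CD3E, CD3D, CD79A and MS4A1 were not listed and the myeloid gene LYZ was, at 10.6 to 31.4.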

How the data were processed

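Reads of the 14 K562 libraries were trimmed and aligned to the human transcriptome of Ensembl release 88 (GRCh38) by the authors, whose notes name Trimmomatic and Bowtie2 without versions, and passed through the icSHAPE pipeline, which pools replicates and sets the treated library against its control. The deposited profiles hold, for each transcript, an RPKM and, for each nucleotide, a score that the authors scaled from 0 to 1. Lowest RPKM values were 5.01 to 5.13. The 16 scores outside 0 to 1 were treated as missing.

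From these, identifiers were matched to GENCODE release 44 by equal length: 20512 transcripts stood in any profile, 15325 matched, 7652 stood in all 4 profiles and 3032 were kept, 1 per gene by mean RPKM. All 299 genomic pieces of the runs were A on the transcript strand. A later release of the same identifier can differ in sequence at equal length. A flank needed 10 of 20 nt scored. A run or 8 nt window was called where its mean difference reached 0.1 or -0.1. The runs named are the 10 longest, the 4 highest and 4 lowest differences of each reagent, and the 3 with the highest RPKM in each location, unless said otherwise. The members and lists were chosen with earlier results of these data known. Sequences are those of GENCODE with U for T. Unpaired probability came from RNAplfold (ViennaRNA 2.7.2, window 150, span 100). Python 3.11.15, numpy 2.4.6, scipy 1.17.1 and matplotlib 3.10.9 were used, and the run search was tested on simulated profiles. No test was made, since there is 1 pooled profile per condition. Alternatives tried were scores moved by 1 nt, runs of at least 6 or 10 A, every matched transcript, a distance of 200 nt, scoring in 1 reagent only, medians, division by the profile mean and RPKM of at least 20.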

Additional observations from a re-analysis of the deposited data

How the results depend on the processing

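No paired analysis was possible because each condition has 1 pooled profile without columns for single libraries. Of 201 values of 16 results under the alternatives, 171 stayed within 1.96 SE over runs or the 95% Wilson interval of a share, 24 moved beyond it and 6 turned sign; the cause was not tested. The alternatives that leave out runs of 20 A or more or pseudogenes, or keep the longest run of a gene, and all those of the 3' UTR runs of 12 A or more, were chosen after seeing the data.

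The icLASER difference over A runs was 0.0113 for runs of 6 or more, 0.130 for 10 or more and 0.0333 as a median, and the share higher in vivo 51.2% and 73.6% for these lengths. In 3' UTRs it was 0.0380 and 0.171, and in noncoding transcripts 0.0672 for 10 or more. The icSHAPE difference was 0.0134 as a median, 0.00738 after division by the profile mean and 0.0505 at RPKM of at least 20, with shares of 50.7% and 69.2% in the last 2. In 3' UTRs it was 0.0566 for 10 or more, 0.0134 as a median, 0.0140 after division and 0.0644 at high RPKM, and in noncoding transcripts 0.00963 and 0.0517 as a median and at high RPKM. The coding icSHAPE difference was 0.0241 for runs of 6 or more and 0.0154 as a median, against -0.0354, and -0.148 for the 2 runs of 10 or more. The coding icLASER difference was -0.0179 and -0.0175 at these lengths. Run minus flanks was -0.0168 for runs of 6 or more in icSHAPE in vitro, 0.00166 at high RPKM in icSHAPE in vivo, and in icLASER in vivo -0.00152 with scores moved 1 nt upstream, -0.0466 as a median and 0.0101 at high RPKM. The share of 3' UTR runs of 12 or more higher in icLASER in vivo was 70.0% of 10 runs at high RPKM. Depth behind a score is unknown, so counting error cannot be given.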
